A study of Mus musculus with 8 samples.

Results

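The 37 genes described here encode proteins of epithelial cell junctions, regulators of epithelial identity, and a few related trafficking and surface protease proteins. They were taken as the rows of the deposited count files whose gene symbol equals a listed name, and all 37 were found, each once, among 39179 genes. The set comprises 2 genes of adherens junctions and general adhesion, 9 claudins, 7 other tight junction genes, 7 desmosome genes, 8 regulators, and 4 genes of trafficking and surface proteases. Total RNA of mouse pancreatic ductal adenocarcinoma (PDAC) cells was sequenced in 8 libraries. Cells of 4 lines, numbered 1 to 4 in the labels, overexpressed WT-USP21 (4 libraries) or ED-USP21 (4 libraries). USP21 is an enzyme that removes ubiquitin from other proteins, and the labels do not spell out ED. Cells of both groups derive from the iKPC model and carry an oncogene under a tetO promoter, ROSA_rtTA and p48-Cre. Here rtTA, a doxycycline-dependent activator made from the Rosa locus, drives the tetO transgene, and p48-Cre directs recombination to the pancreas. The background is labelled FVB/C57Bl6 for lines 1 and 2, and C57BL/6 for lines 3 and 4. Neither the doxycycline state of the cultures nor whether a line is a clone is given in the sources used here, and cells without a construct were not analysed here.

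In an epithelial sheet, adherens junctions built on E-cadherin hold neighbouring cells together, tight junctions seal the space between them, and desmosomes tie their keratin filaments across the membrane. Claudins and the MARVEL proteins span the membrane in tight junctions, and ZO proteins such as Tjp1 link them to actin. Transcription factors of the grainyhead-like, Ovol and ETS families and the splicing regulators Esrp1 and Esrp2 maintain this programme, whereas repressors of the Snail and Zeb families bind E-boxes in promoters such as that of Cdh1 and lower it when epithelial cells turn mesenchymal. In the pancreas the duct cells, and the tumours that look like them, carry these junctions.

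Libraries held 72828184 to 107551210 reads counted in genes. Usp21 itself was at 147, 944, 539 and 941 CPM in the WT-USP21 libraries of lines 1 to 4, against 1658, 3133, 1662 and 2721 CPM in the ED-USP21 libraries, so the constructs differ in Usp21 amount as well as in form. The keratins that mark epithelial cells (Krt7, Krt8, Krt18 and Krt19, 4 of 4 detected) summed to 7360 to 12757 CPM (counts scaled to library size) in WT-USP21 libraries and 7640 to 10835 CPM in ED-USP21 libraries. Of the 6 fibroblast markers, Dcn and Lum had 0 reads in every library, and the list summed to 6.85 to 15.0 CPM with WT-USP21 and 4.78 to 7.84 CPM with ED-USP21. Immune cell markers (5 of 6 listed were in the files) summed to 6.02 to 12.9 CPM with WT-USP21 and 4.99 to 15.8 CPM with ED-USP21. Endothelial markers (5, with Emcn at 0 reads) summed to 2.35 to 7.53 CPM with WT-USP21 and 0.539 to 0.817 CPM with ED-USP21. Acinar markers (5, with Pnlip and Ptf1a at 0 reads) stayed at or below 0.152 CPM with WT-USP21 and 0.0901 CPM with ED-USP21. The endothelial sum moved with the construct, but its genes did not move alike. Kdr had 1798 reads with WT-USP21 against 109 with ED-USP21, and only 6 reads in line 1. Cdh5 had 275 against 82, with 245 reads in line 1. Pecam1 had 32 against 34 and Tie1 17 against 11. The part of this sum in the results below was not tested. Line 1 stood apart: a library of line 1 and a library of another line were at least 2-fold apart in 14 to 17 of 32 members and in 20.6% to 25.3% of the 16192 genes tested, against 0 to 8 members and 4.34% to 11.3% of genes between libraries of different lines among 2 to 4. Lines 2 and 4 lay nearest to each other, with 4.43% of genes at least 2-fold apart with WT-USP21 and 4.34% with ED-USP21. Between either of them and line 3 this was 7.94% to 9.10% within a construct. The independence of lines 2 and 4 is not shown, which limits each n of 4. This limit weighs more in every test whose spread comes from lines 2 to 4 alone, where SE and p-values may be too small. The p-values below measure the spread between these lines and libraries.

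Which of these transcripts differ with the construct was asked first. Over the 4 lines no member passed, and the direction depended on the line: junction and identity genes were mostly higher with WT-USP21 in line 1 and mostly lower with WT-USP21 in lines 2, 3 and 4. With 4 libraries per construct and the cell line ignored, edgeR's quasi-likelihood test called 0 of the 32 members tested and 0 (0%) of all 16192 genes at a Benjamini-Hochberg adjusted p under 0.05, with 0 members and 392 genes at an unadjusted p under 0.05. DESeq2 and limma-trend also called 0 members there. With the cell line as a block the counts were 0 of 32 members and 4 (0.0247%) of all genes, with 5 members and 1341 genes at an unadjusted p under 0.05. In that blocked comparison DESeq2 called 2 members, both higher with WT-USP21 (Cldn2 and Pkp1), and limma-trend called 0. Cldn1, Cldn4, Esrp1, Ovol1 and Ovol2 had too few reads to be tested. In bulk RNA, fewer cells of a type and less RNA per cell cannot be told apart.

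The median log2 difference of the 32 tested members, WT-USP21 minus ED-USP21, was 0.39 in line 1 but -0.39, -0.17 and -0.44 in lines 2, 3 and 4. Over all genes tested these medians were 0.01, 0.00, -0.02 and 0.00. In line 1, 26 of the 32 were higher with WT-USP21, against 6, 7 and 6 in lines 2, 3 and 4, where 51.4%, 50.6%, 46.5% and 50.7% of all genes tested were higher. Of all 37 members, 20 were higher with WT-USP21 in line 1 and lower in each of lines 2, 3 and 4 (62.5% of the 32 tested, against 12.5% of all genes tested). Cldn1 alone showed the opposite of that pattern, but it was not tested and had only 3 reads in the libraries of line 1. Both directions were known when the genes were chosen, so these counts are a description. Cldn2, Cldn4, Dsc2, Pkp1 and Spint1 were higher with WT-USP21 in 4 of 4 lines, and Cldn3, Cgn and Grhl2 were lower in 4 of 4. Of these, Cldn4 (55 reads in all, not tested), Cldn3 (293) and Grhl2 (153) stayed under 1 CPM in every library. The construct groups did not fully separate over the 4 lines for any member, against 1.07% of all genes tested with every WT-USP21 library above every ED-USP21 library and 0.71% with every one below.

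**Figure D1:**
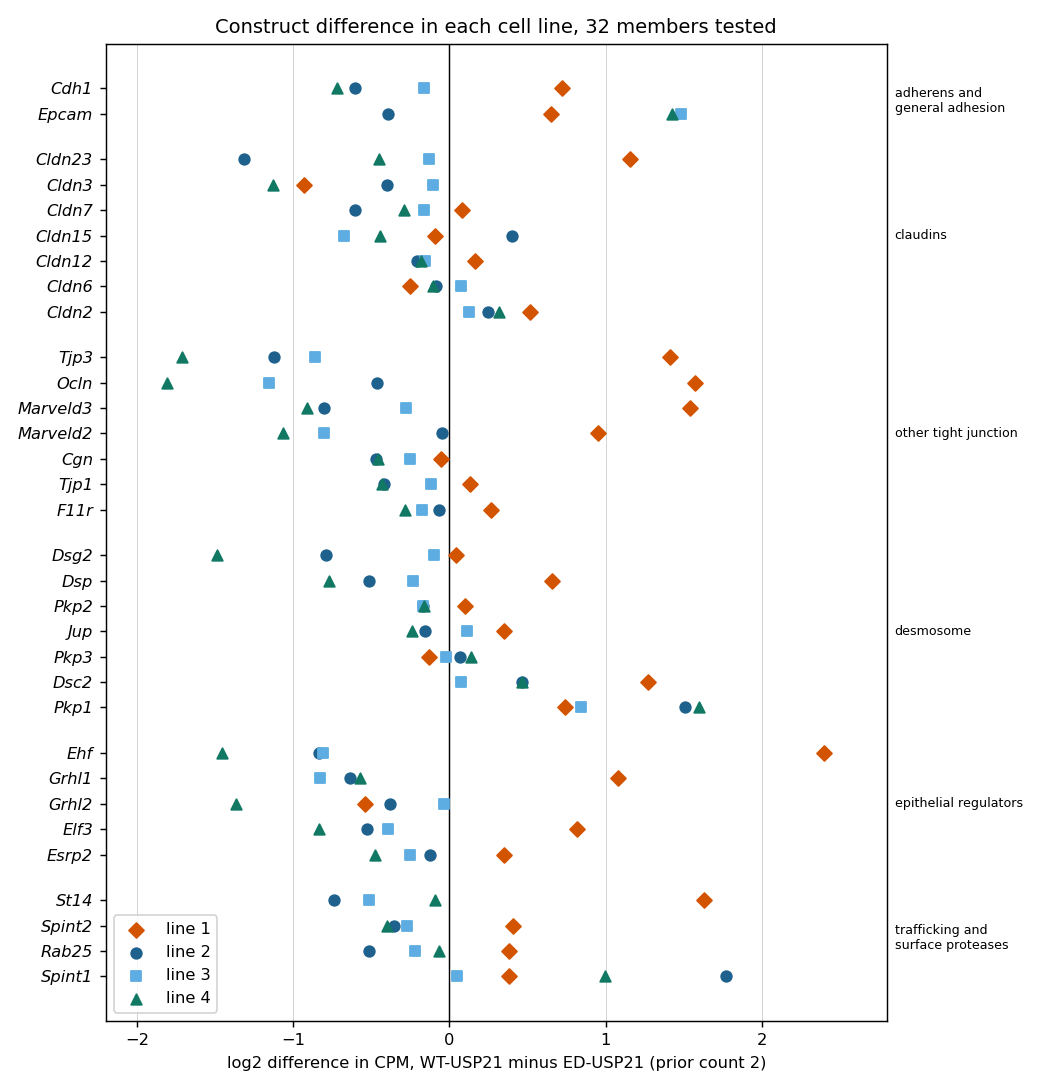
Log2 difference in CPM, WT-USP21 minus ED-USP21 (x axis, prior count 2), for each of the 32 members tested (1 per row, grouped by role), with 1 point per cell line and no error, since each is a single difference. Line 1 lies right of 0 for 26 members, while lines 2, 3 and 4 lie right of it for 6, 7 and 6.

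The difference between lines was tested as an interaction, the construct difference in line 1 minus that in lines 2 to 4, with the line as a block. Line 1 is a single pair of libraries, so the spread comes from lines 2 to 4 alone and line 1 is assumed to vary as they do. Lines 2 and 4 are not shown to be independent, so this spread may be too small, here and within lines 2 to 4. The opposite sign of line 1 was known when the genes were chosen, so the p-values of this interaction, here and for single genes below, are a description and no independent support. edgeR called 8 of 32 members, 8 with a higher and 0 with a lower construct difference in line 1. That is 25% of the members, against 6.27% of all genes (3.19% higher, 3.08% lower). The 8 were Cdh1, Ocln, Tjp3, Marveld3, Dsp, Elf3, Ehf and Spint2. The median interaction over the 32 was 0.55 on the log2 scale, against 0.00 over all genes tested. Without line 2 edgeR called 0 members and 0 genes in all, without line 3 it called 14 members and 13.1% of all genes, and without line 4 it called 7 members and 4.32% of all genes. Within lines 2 to 4 alone, a choice made after seeing the data, 6 of 33 members passed with the line as a block (18.2%, against 4.57% of all genes). Of these, 5 were lower with WT-USP21 (Tjp3, Cgn, Elf3, Ehf and Spint2) and Pkp1 was higher, while 2.06% of all genes were called lower and 2.51% higher. That count was 0 without the block, where 2.35% of all genes were called (1.49% higher, 0.851% lower), 0 without line 2 (0.0669% of all genes), 12 without line 3 (10.4%) and 2 without line 4 (1.84%). The WT-USP21 libraries of lines 2 to 4 lay wholly below the ED-USP21 libraries for 15 members (46.9% of the 32 tested, against 9.33% of all genes tested), and wholly above them for 4 members, of which 2 were tested (6.25%, against 9.15%).

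Promoter windows are shown for 4 of the 8 members called in the interaction, 1 from each of 4 roles, because these members moved together. Each window runs from 250 bases before to 50 bases after a gene's start on the RefSeq annotation of GRCm38.p6, 5′ to 3′ on the gene's own strand. Capitals mark each match to CACCTG or its reverse complement CAGGTG, the E-box that Snail and Zeb proteins are known to bind.
Tjp3: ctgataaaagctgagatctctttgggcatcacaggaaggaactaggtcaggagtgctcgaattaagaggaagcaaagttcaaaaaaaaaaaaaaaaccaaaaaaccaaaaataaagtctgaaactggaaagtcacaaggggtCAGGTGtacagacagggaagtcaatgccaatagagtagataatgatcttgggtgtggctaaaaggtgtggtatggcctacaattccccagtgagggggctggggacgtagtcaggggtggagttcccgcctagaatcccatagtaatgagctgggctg
Dsp: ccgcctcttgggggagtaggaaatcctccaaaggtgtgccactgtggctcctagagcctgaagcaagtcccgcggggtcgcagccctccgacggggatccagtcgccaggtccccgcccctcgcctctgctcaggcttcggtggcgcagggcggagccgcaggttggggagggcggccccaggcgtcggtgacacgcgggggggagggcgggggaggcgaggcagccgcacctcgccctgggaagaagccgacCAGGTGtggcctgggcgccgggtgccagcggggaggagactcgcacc
Elf3: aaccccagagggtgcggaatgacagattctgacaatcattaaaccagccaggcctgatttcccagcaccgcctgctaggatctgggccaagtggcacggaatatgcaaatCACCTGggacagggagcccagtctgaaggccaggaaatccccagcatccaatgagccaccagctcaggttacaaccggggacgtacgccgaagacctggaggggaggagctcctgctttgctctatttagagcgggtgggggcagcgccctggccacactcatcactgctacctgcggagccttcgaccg
Spint2: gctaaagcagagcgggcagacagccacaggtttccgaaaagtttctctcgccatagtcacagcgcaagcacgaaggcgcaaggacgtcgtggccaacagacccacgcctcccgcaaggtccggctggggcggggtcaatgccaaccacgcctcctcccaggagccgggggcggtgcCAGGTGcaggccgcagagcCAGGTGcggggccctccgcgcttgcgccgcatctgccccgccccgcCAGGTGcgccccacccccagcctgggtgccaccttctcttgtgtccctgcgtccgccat

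These windows lie at chr10:81291532-81291831 (minus strand) for Tjp3, chr13:38151044-38151343 (plus strand) for Dsp, chr1:135258423-135258722 (minus strand) for Elf3 and chr7:29281928-29282227 (minus strand) for Spint2. Tjp3 has another window, which also holds a match, and the Spint2 window holds 3. RefSeq windows were at hand for 23 of the 37 members, 30 windows in all, and 16 of the 30 (53.3%) held CACCTG on either strand, against 20.2% of 32851 windows of the same length. The 5 members called in the interaction that have a window all held CACCTG. So did F11r, Rab25, Cldn3, Cldn4, Cldn6, Cldn7, Marveld2 and Epcam, which were not called in it. The remaining members with a window did not hold it. Counted by gene, 13 of the 23 members with a window (56.5%) held it, against 22.6% of all gene symbols with a window. AACCGGTT, which reads the same on both strands and is the site that grainyhead-like factors are known to bind, was in 0 of the 30 and in 0.146% of all windows. Neither motif contains the other. A match is a description of letters in a window of fixed length, base composition was not matched, and no binding was measured.

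Cdh1 (ENSMUSG00000000303), the gene of E-cadherin, passed the test of the interaction. Its level was 545, 302, 373 and 289 CPM in the WT-USP21 libraries of lines 1 to 4, against 330.1, 459, 418 and 477 CPM in the ED-USP21 libraries. In line 1 the WT-USP21 library was the higher one and in lines 2 to 4 the lower one, and in lines 2 to 4 the groups did not overlap. The log2 differences were 0.72, -0.60, -0.16 and -0.72 in lines 1 to 4. By edgeR the interaction was 1.22 on the log2 scale (SE 0.22, adjusted p = 0.0307), while in lines 2 to 4 alone the log2 difference of -0.49 (SE 0.11) did not pass (adjusted p = 0.0661). Epcam (ENSMUSG00000045394), an adhesion molecule of epithelial cells, was at 5.35, 0.139, 0.220 and 0.314 CPM in the WT-USP21 libraries of lines 1 to 4, against 3.40, 0.189, 0.0645 and 0.103 CPM in the ED-USP21 libraries. It was above 1 CPM in the line 1 libraries alone, and the groups overlapped. Its log2 differences of 0.65, -0.39, 1.48 and 1.42 rest on few reads in lines 2 to 4, whose 6 libraries held 90 in all against 845 in the 2 libraries of line 1.

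**Figure D2:**
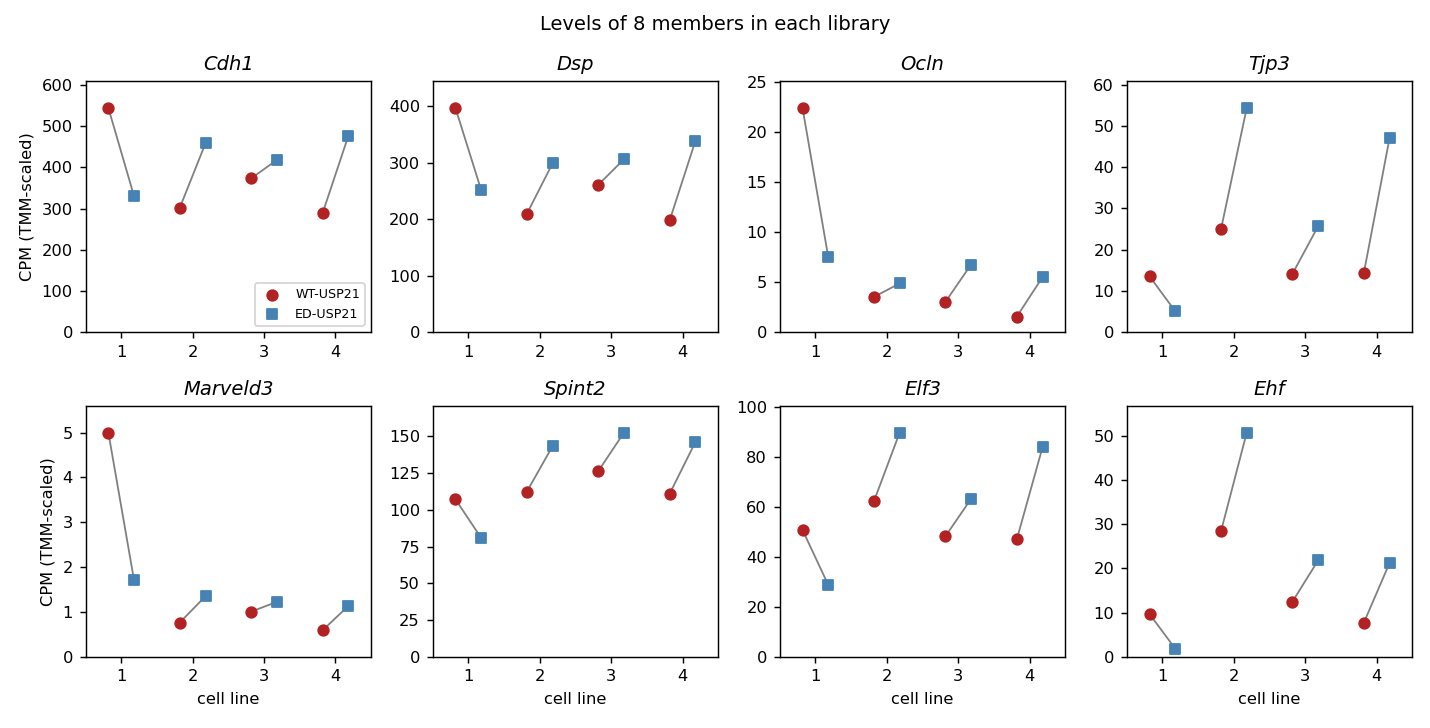
Level in CPM (y axis, from 0, a separate scale for each gene) of the 8 members called in the interaction, in each library, with the 4 cell lines on the x axis, WT-USP21 left of ED-USP21, and 1 point per library. For Cdh1 the WT-USP21 library is the higher one in line 1 (545 against 330.1 CPM) and the lower one in lines 2, 3 and 4.

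Claudins, the strand-forming proteins of tight junctions, gave 0 edgeR calls of 7 tested in the interaction, 0 within lines and 0 in lines 2 to 4, while DESeq2 called Cldn2 higher with WT-USP21 within lines and in lines 2 to 4. Their median log2 difference was 0.08 in line 1 and -0.21, -0.13 and -0.29 in lines 2, 3 and 4. Cldn2, which forms a pore for small cations, was at 69.2, 149, 189.7 and 132 CPM in the WT-USP21 libraries of lines 1 to 4, against 48.3, 125, 174 and 106 CPM in the ED-USP21 libraries. Each line had the higher level with WT-USP21, although the groups overlapped. The log2 difference with the block was 0.30 (SE 0.08, edgeR adjusted p = 0.343) over all lines and 0.24 (SE 0.06, edgeR adjusted p = 0.0889) in lines 2 to 4. Cldn12 had 176, 92.0, 101 and 92.4 CPM in the WT-USP21 libraries of lines 1 to 4, against 157, 106, 112 and 105 CPM in the ED-USP21 libraries. Its groups did not overlap in lines 2 to 4, where WT-USP21 was lower, and its interaction did not pass (log2 0.34, SE 0.11, edgeR adjusted p = 0.127). Cldn23 had 1.49, 0.367, 1.04 and 0.569 CPM in the WT-USP21 libraries of lines 1 to 4, against 0.655, 0.945, 1.14 and 0.785 CPM in the ED-USP21 libraries. Its log2 differences were 1.16, -1.31, -0.13 and -0.45, and the interaction did not pass (edgeR adjusted p = 0.171).

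Cldn6, an early embryonic claudin, was at 320.1, 24.8, 35.7 and 23.2 CPM in the WT-USP21 libraries of lines 1 to 4, against 381, 26.3, 33.9 and 25.0 CPM in the ED-USP21 libraries. Line 1 lay far above the other lines with either construct, and the log2 differences between constructs were -0.25, -0.08, 0.07 and -0.11. Cldn3, Cldn7 and Cldn15 stayed under 1 CPM in every library, with 293, 396 and 227 reads over the 8 libraries. Cldn3 was at 0.0652, 0.476, 0.378 and 0.395 CPM in the WT-USP21 libraries of lines 1 to 4, against 0.144, 0.635, 0.409 and 0.888 CPM in the ED-USP21 libraries. In each line WT-USP21 was the lower, with a log2 difference of -0.67 (SE 0.32) within lines that did not pass (edgeR adjusted p = 0.658). The untested Cldn1 and Cldn4 had more reads with WT-USP21, 51 against 7 with ED-USP21 for Cldn1 and 45 against 10 for Cldn4. With TMM-scaled library sizes, the WT-USP21 to ED-USP21 ratios were 6.79 (95% interval 3.07 to 17.7) and 4.19 (2.08 to 9.33). These intervals cover counting error only. In lines 2 to 4 the WT-USP21 libraries lay wholly above the ED-USP21 libraries for both genes.

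The other tight junction genes held 3 of the 8 calls of the interaction, out of 7 tested. Their median log2 difference was 0.95 in line 1 and -0.47, -0.28 and -0.91 in lines 2, 3 and 4. Tjp3 (ENSMUSG00000034917), the scaffold protein ZO-3, was at 13.5, 25.0, 14.1 and 14.4 CPM in the WT-USP21 libraries of lines 1 to 4, against 5.06, 54.4, 25.7 and 47.1 CPM in the ED-USP21 libraries. The WT-USP21 library held more than the ED-USP21 library in line 1 alone, and the groups did not overlap in lines 2 to 4. Tjp3 had an interaction of 2.65 (SE 0.32, edgeR adjusted p = 0.0157) and fell with WT-USP21 in lines 2 to 4 by 1.23 on the log2 scale (SE 0.16, edgeR adjusted p = 0.0150). Ocln (ENSMUSG00000021638), occludin, a MARVEL protein of the tight junction membrane, was at 22.4, 3.52, 3.02 and 1.56 CPM in the WT-USP21 libraries of lines 1 to 4, against 7.52, 4.88, 6.76 and 5.50 CPM in the ED-USP21 libraries. Line 1 held the highest level of either construct, and in lines 2 to 4 the groups did not overlap. Its interaction was 2.71 (SE 0.48, edgeR adjusted p = 0.0291), and the log2 difference of -1.13 in lines 2 to 4 did not pass (SE 0.26, adjusted p = 0.0665).

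Marveld3 (ENSMUSG00000001672), another MARVEL protein, had 5.0, 0.764, 1.01 and 0.592 CPM in the WT-USP21 libraries of lines 1 to 4, against 1.70, 1.35, 1.23 and 1.13 CPM in the ED-USP21 libraries. WT-USP21 lay above ED-USP21 in line 1 and below it, without overlap, in lines 2 to 4. It passed in the interaction (log2 2.22, SE 0.46, edgeR adjusted p = 0.0439), a call lost without line 2 and without line 4. Marveld2, tricellulin, which seals the corners where cells meet, was at 12.8, 0.208, 0.126 and 0.197 CPM in the WT-USP21 libraries of lines 1 to 4, against 6.64, 0.216, 0.237 and 0.438 CPM in the ED-USP21 libraries. Lines 2 to 4 stayed under 1 CPM, with 122 reads in 6 libraries against 1871 in the 2 libraries of line 1. Its log2 differences were 0.95, -0.05, -0.81 and -1.07, and the interaction did not pass (1.66, SE 0.46, edgeR adjusted p = 0.0953).

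Cgn (ENSMUSG00000068876), cingulin, which links tight junctions to actin and myosin, was at 79.8, 76.0, 62.2 and 78.2 CPM in the WT-USP21 libraries of lines 1 to 4, against 82.7, 105, 73.9 and 107 CPM in the ED-USP21 libraries. WT-USP21 was the lower in 4 of 4 lines, in line 1 by a log2 difference of -0.05, and the groups overlapped in lines 2 to 4. Within lines 2 to 4 it fell by 0.39 on the log2 scale (SE 0.07, edgeR adjusted p = 0.0334). Over 4 lines its log2 difference was -0.31 (SE 0.09, edgeR adjusted p = 0.401). Tjp1, the scaffold ZO-1, was at 434, 407, 492 and 379.6 CPM in the WT-USP21 libraries of lines 1 to 4, against 396, 544, 534 and 513 CPM in the ED-USP21 libraries. WT-USP21 lay below ED-USP21 without overlap in lines 2 to 4, where the log2 difference of -0.32 did not pass (SE 0.08, edgeR adjusted p = 0.0851). F11r, the junctional adhesion molecule JAM-A, was at 233, 129, 128 and 114 CPM in the WT-USP21 libraries of lines 1 to 4, against 194, 134, 145 and 139.6 CPM in the ED-USP21 libraries. Its interaction was 0.44 (SE 0.13, edgeR adjusted p = 0.105).

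Of the 7 desmosome genes, edgeR called Dsp in the interaction and Pkp1 in lines 2 to 4. Their median log2 difference was 0.35 in line 1 and -0.16, -0.02 and -0.16 in lines 2, 3 and 4. Dsp (ENSMUSG00000054889), desmoplakin, which anchors keratin filaments to the plaque, was at 397, 209.7, 261 and 198 CPM in the WT-USP21 libraries of lines 1 to 4, against 252, 299, 306 and 339 CPM in the ED-USP21 libraries. It followed Cdh1 in being higher with WT-USP21 in line 1 and lower, without overlap, in lines 2 to 4. The interaction was 1.16 (SE 0.21, edgeR adjusted p = 0.0296), and the log2 difference of -0.50 in lines 2 to 4 did not pass (SE 0.10, adjusted p = 0.0547).

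Pkp1 (ENSMUSG00000026413), plakophilin 1, which clusters desmosomal cadherins and is best known from stratified epithelia, went the other way from most members. Its level was 26.8, 3.77, 5.78 and 5.62 CPM in the WT-USP21 libraries of lines 1 to 4, against 16.1, 1.31, 3.22 and 1.84 CPM in the ED-USP21 libraries. The WT-USP21 library was the higher one in 4 of 4 lines, by 0.74, 1.51, 0.84 and 1.60 on the log2 scale, and in lines 2 to 4 the groups did not overlap. In lines 2 to 4 it rose by 1.32 (SE 0.20, edgeR adjusted p = 0.0216), and with all 4 lines in the block the difference of 1.16 did not pass (SE 0.19, edgeR adjusted p = 0.184), although it had the smallest p of the 32. Plakophilins 2 and 3 showed small differences: Pkp2 had log2 differences of 0.10, -0.17, -0.17 and -0.16 and Pkp3 of -0.13, 0.07, -0.02 and 0.14.

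Of the desmosomal cadherins, Dsc2 was at 15.0, 1.22, 0.976 and 1.82 CPM in the WT-USP21 libraries of lines 1 to 4, against 6.20, 0.878, 0.925 and 1.31 CPM in the ED-USP21 libraries. WT-USP21 held the higher level in 4 of 4 lines. Its log2 difference within lines was 0.59 (SE 0.22, edgeR adjusted p = 0.557). Dsg2 was at 51.1, 7.81, 11.6 and 6.36 CPM in the WT-USP21 libraries of lines 1 to 4, against 49.6, 13.5, 12.4 and 17.9 CPM in the ED-USP21 libraries. The 2 libraries of line 1 were close to each other, whereas WT-USP21 lay below ED-USP21 without overlap in lines 2 to 4 (log2 -0.78, SE 0.24, edgeR adjusted p = 0.151). Jup, plakoglobin, which serves desmosomes and adherens junctions, was at 234, 139, 169 and 134 CPM in the WT-USP21 libraries of lines 1 to 4, against 184, 155, 156 and 158 CPM in the ED-USP21 libraries. Its interaction of 0.44 did not pass (SE 0.16, edgeR adjusted p = 0.171).

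Among the 8 regulators, 5 were tested in the interaction and 2 were called. Their median log2 difference was 0.82 in line 1 and -0.53, -0.39 and -0.84 in lines 2, 3 and 4. Ehf (ENSMUSG00000012350), an ETS factor of epithelial cells, gave the largest interaction of the 8 called members. Its level was 9.65, 28.4, 12.5 and 7.72 CPM in the WT-USP21 libraries of lines 1 to 4, against 1.81, 50.8, 21.8 and 21.3 CPM in the ED-USP21 libraries. The ED-USP21 library of line 1 was the lowest of the 8 and the ED-USP21 library of line 2 the highest, and the groups overlapped in lines 2 to 4. Its interaction was 3.44 (SE 0.30, edgeR adjusted p = 0.0129), and it fell with WT-USP21 in lines 2 to 4 by 1.02 on the log2 scale (SE 0.14, edgeR adjusted p = 0.0163). Elf3 (ENSMUSG00000003051), another epithelial ETS factor, was at 50.8, 62.3, 48.2 and 47.0 CPM in the WT-USP21 libraries of lines 1 to 4, against 28.8, 89.8, 63.3 and 83.9 CPM in the ED-USP21 libraries. Its groups did not overlap in lines 2 to 4. The interaction was 1.40 (SE 0.19, edgeR adjusted p = 0.0173), and Elf3 fell by 0.58 in lines 2 to 4 (SE 0.09, edgeR adjusted p = 0.0261).

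Esrp2, a splicing regulator that sets epithelial exon choice, was at 43.2, 21.9, 21.4 and 21.5 CPM in the WT-USP21 libraries of lines 1 to 4, against 33.9, 23.9, 25.5 and 29.9 CPM in the ED-USP21 libraries. The interaction did not pass (0.64, SE 0.16, edgeR adjusted p = 0.0800). Grhl1, a grainyhead-like transcription factor, was at 6.03, 0.357, 0.220 and 0.383 CPM in the WT-USP21 libraries of lines 1 to 4, against 2.84, 0.567, 0.409 and 0.579 CPM in the ED-USP21 libraries. Its interaction of 1.80 did not pass either (SE 0.43, edgeR adjusted p = 0.0669). Grhl2, the family member most tied to junction gene expression, stayed under 1 CPM, with 153 reads in all and log2 differences of -0.54, -0.38, -0.03 and -1.37. Esrp1 had 17 reads over the 8 libraries, 12 of them with WT-USP21 against 5 with ED-USP21. Ovol2, a repressor of mesenchymal genes, had 7 reads, 3 of them with WT-USP21 against 4 with ED-USP21. For these 2 genes a difference was not detectable at this depth. For its relative Ovol1 the WT-USP21 libraries held 50 reads and the ED-USP21 libraries 25, a scaled ratio of 1.86 (95% interval 1.13 to 3.14, counting error only).

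Of the trafficking and surface protease genes, Spint2 (ENSMUSG00000074227), an inhibitor of membrane serine proteases, was called in the interaction. Its level was 107, 112, 126 and 111 CPM in the WT-USP21 libraries of lines 1 to 4, against 80.8, 143, 152 and 146 CPM in the ED-USP21 libraries. The ED-USP21 library of line 1 was the lowest of the 8, and WT-USP21 lay below ED-USP21 without overlap in lines 2 to 4. Its interaction was small in size, 0.75 (SE 0.11, edgeR adjusted p = 0.0211), and it fell by 0.33 in lines 2 to 4 (SE 0.06, edgeR adjusted p = 0.0309). Spint1, the related inhibitor, was at 8.59, 1.25, 0.745 and 1.49 CPM in the WT-USP21 libraries of lines 1 to 4, against 6.58, 0.351, 0.720 and 0.734 CPM in the ED-USP21 libraries. WT-USP21 held the higher level in each line, the groups of 4 libraries overlapped, and the log2 difference of 0.79 within lines did not pass (SE 0.31, edgeR adjusted p = 0.575).

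St14, matriptase, the membrane protease that both inhibitors act on, was at 0.196, 0.129, 0.325 and 0.337 CPM in the WT-USP21 libraries of lines 1 to 4, against 0.0482, 0.230, 0.473 and 0.360 CPM in the ED-USP21 libraries. Its log2 differences were 1.63, -0.74, -0.51 and -0.09, from 185 reads in all, and its interaction did not pass (2.46, SE 0.89, edgeR adjusted p = 0.174). Rab25, a small GTPase of apical recycling in epithelial cells, was at 0.359, 0.248, 0.126 and 0.221 CPM in the WT-USP21 libraries of lines 1 to 4, against 0.270, 0.365, 0.151 and 0.232 CPM in the ED-USP21 libraries. It had 176 reads in all, and its log2 differences were 0.38, -0.52, -0.22 and -0.06.

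The lines were also compared with each other, after both libraries of a line had been added up. The line 1 total stood alone against lines 2, 3 and 4 and was assumed to vary as they do. The limit given above for lines 2 and 4 applies to this spread too. Line 1 was singled out with earlier results of these data known. The p-values of this comparison are therefore a description and no independent support. edgeR called 21 of 35 members tested (60%), 15 higher and 6 lower in line 1, against 31.6% of 19125 genes (18.6% higher, 13% lower). The median log2 difference of the 35 was 0.44, against -0.04 over all genes tested. Line 1 libraries lay above the 6 others for 15 of 37 members and below them for 6, against 26% and 24.3% of all genes tested. Marveld2, Epcam, Cldn6 and Grhl1 showed the largest differences, at 5.39 (SE 0.29, edgeR adjusted p = 0.000201), 4.68 (SE 0.29, edgeR adjusted p = 0.000295), 3.68 (SE 0.19, edgeR adjusted p = 0.000167) and 3.43 (SE 0.29, edgeR adjusted p = 0.000782). Read counts per line give the same order of size for the low genes: Marveld2 had 41.3 times the scaled reads in line 1 as in lines 2 to 4 (95% interval 34.3 to 49.97, counting error only), Epcam 25.3 times (20.3 to 31.8) and Grhl1 10.6 times (9.15 to 12.4).

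Dsc2, Spint1, Pkp1 and Dsg2 followed, with log2 differences of 3.14 (SE 0.28, edgeR adjusted p = 0.000924), 3.08 (SE 0.26, edgeR adjusted p = 0.000767), 2.55 (SE 0.25, edgeR adjusted p = 0.00118) and 2.18 (SE 0.12, edgeR adjusted p = 0.000175). Ocln (1.85), Marveld3 (1.75), Grhl2 (1.40), Cldn12 (0.75), F11r (0.73), Esrp2 (0.71) and Jup (0.49) were also called higher in line 1. Lower in line 1 were Cldn3 (-2.24), Ehf (-2.03), Tjp3 (-1.65), Cldn2 (-1.30), Elf3 (-0.69) and Spint2 (-0.45). The calls of Grhl2 (edgeR adjusted p = 0.0472) and Ehf (adjusted p = 0.0490) lay near the threshold and were lost under several alternatives. Cdh1 (log2 0.21, SE 0.09, edgeR adjusted p = 0.112) and Dsp (0.31, SE 0.10, edgeR adjusted p = 0.0688) did not pass. Of the 8 members called in the interaction, Ocln and Marveld3 were called higher in line 1, and Tjp3, Ehf, Elf3 and Spint2 lower.

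**Figure D3:**
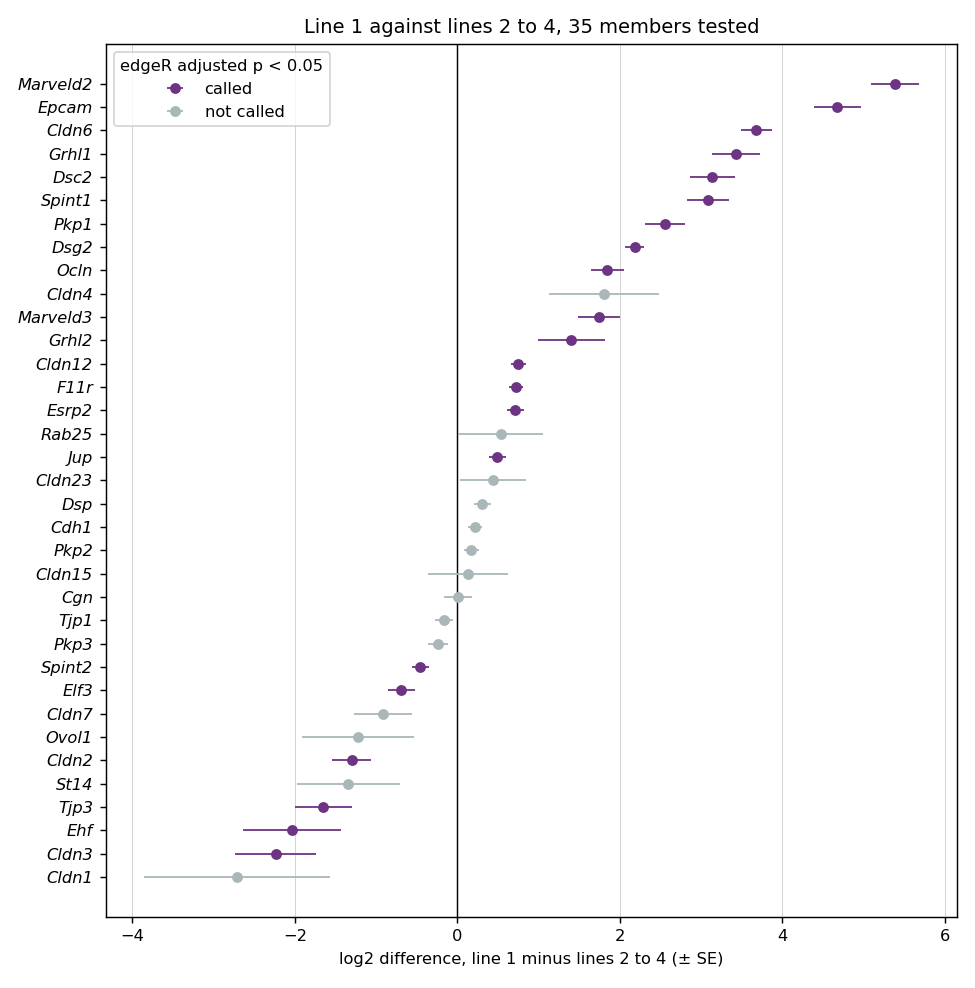
Log2 difference between line 1 and lines 2 to 4 (x axis, both libraries of a line added up) for the 35 members tested (1 per row, ordered by size), with bars of ± 1 SE from edgeR and dark points for an adjusted p under 0.05. The 15 members called higher reach from 0.49 (Jup) to 5.39 (Marveld2) and the 6 called lower from -0.45 (Spint2) to -2.24 (Cldn3).

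By background label, FVB/C57Bl6 lines 1 and 2 against C57BL/6 lines 3 and 4, edgeR called 0 of 35 members and 0 (0%) of 17897 genes, with 0 members and 162 genes under 0.05 before adjustment. DESeq2 and limma-trend called 0 members as well. Lines 1 and 2 share a label, and their WT-USP21 libraries were at least 2-fold apart in 23.7% of genes, against 4.43% between lines 2 and 4, whose labels differ. Without line 2, where line 1 alone carries the FVB/C57Bl6 label, 20 members and 24.4% of all genes were called, and without line 1 the counts were 1 member and 0.0431% of all genes.

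Other genes of the same structures, from further lists, gave these counts. Within lines with the block, edgeR called 0 of 9 other adherens junction genes tested, 0 of 15 other tight junction and polarity genes, 0 of 4 other desmosome and envelope genes and 0 of 8 other epithelial regulators and surface genes. In lines 2 to 4 it called 0 of 9, 1 of 15 (lower with WT-USP21), 2 of 4 (Ppl and Pkp4, both lower) and 2 of 7 (Muc1 lower, Cd24a higher) in the same order, against 4.57% of all genes (2.51% higher, 2.06% lower). Periplakin (Ppl), a desmosome-associated plakin, fell by 0.56 in lines 2 to 4 (SE 0.08, edgeR adjusted p = 0.0171), and plakophilin 4 (Pkp4) by 0.37 (SE 0.07, adjusted p = 0.0399). Muc1, an apical mucin of duct cells, was at 168, 146, 145 and 116 CPM in the WT-USP21 libraries of lines 1 to 4, against 53.3, 211, 193 and 199.8 CPM in the ED-USP21 libraries. In it the ED-USP21 library of line 1 was the lowest of the 8, the groups did not overlap in lines 2 to 4, and it fell there by 0.57 (SE 0.08, edgeR adjusted p = 0.0194). Cd24a, a surface glycoprotein with near-identical copies in the genome, rose by 0.56 (SE 0.10, edgeR adjusted p = 0.0371), a value that is uncertain for that reason. The interaction called 6.27% of all genes (3.19% higher, 3.08% lower). Among other tight junction and polarity genes it called the construct difference of 1 of 15 higher in line 1 (Llgl2, 0.62). Among other desmosome and envelope genes this was 1 of 4 (Perp, 0.70). For other epithelial regulators and surface genes it was 2 of 8 (Mal2, 1.23, and Muc1, 2.23). Of the other adherens junction genes 0 of 9 were called. These values compare construct differences, not levels, between lines.

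Repressors of epithelial genes and mesenchymal genes lay the other way from most members in lines 2 to 4. Of 8 tested, 4 rose with WT-USP21 there and 0 fell, against 2.51% and 2.06% of all genes, and 3 rose without the line as a block. The 8 had a median log2 difference of 0.73 against 0.00 over all genes tested. Within all 4 lines 0 of the 8 passed. Zeb2, a repressor of Cdh1, was at 24.5, 24.4, 24.1 and 24.2 CPM in the WT-USP21 libraries of lines 1 to 4, against 31.6, 10.7, 13.7 and 8.28 CPM in the ED-USP21 libraries. WT-USP21 libraries were nearly level across the 4 lines, and the ED-USP21 libraries of lines 2 to 4 were lower than any of them while that of line 1 was higher. Zeb2 rose by 1.19 in lines 2 to 4 (SE 0.14, edgeR adjusted p = 0.0113) and had an interaction of -1.54 (SE 0.27, edgeR adjusted p = 0.0279).

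Cdh2, N-cadherin, was at 152, 124, 139.5 and 153 CPM in the WT-USP21 libraries of lines 1 to 4, against 156, 69.0, 89.3 and 73.4 CPM in the ED-USP21 libraries. It rose by 0.86 in lines 2 to 4 (SE 0.09, edgeR adjusted p = 0.00892), with an interaction of -0.89 (SE 0.17, edgeR adjusted p = 0.0373). Fn1, fibronectin, rose by 1.27 (SE 0.17, edgeR adjusted p = 0.0161), at 737, 274, 532 and 306 CPM in the WT-USP21 libraries of lines 1 to 4, against 723, 162, 164 and 122 CPM in the ED-USP21 libraries. Twist1, a mesenchymal transcription factor, rose by 0.61 (SE 0.09, edgeR adjusted p = 0.0213) in lines 2 to 4 and had 0 reads in either library of line 1. Snai1, Snai2, Zeb1 and Vim did not pass in lines 2 to 4. Vimentin (Vim) was at 2389, 3125, 3249 and 3163 CPM in the WT-USP21 libraries of lines 1 to 4, against 3146, 2516, 3321 and 2622 CPM in the ED-USP21 libraries, beside the Cdh1 levels given above. Zeb2, Cdh2, Fn1 and Twist1 were higher with WT-USP21 in lines 2 to 4, where Cdh1, Dsp and Elf3 were lower with it, and their part in those differences was not tested.

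**Figure D4:**
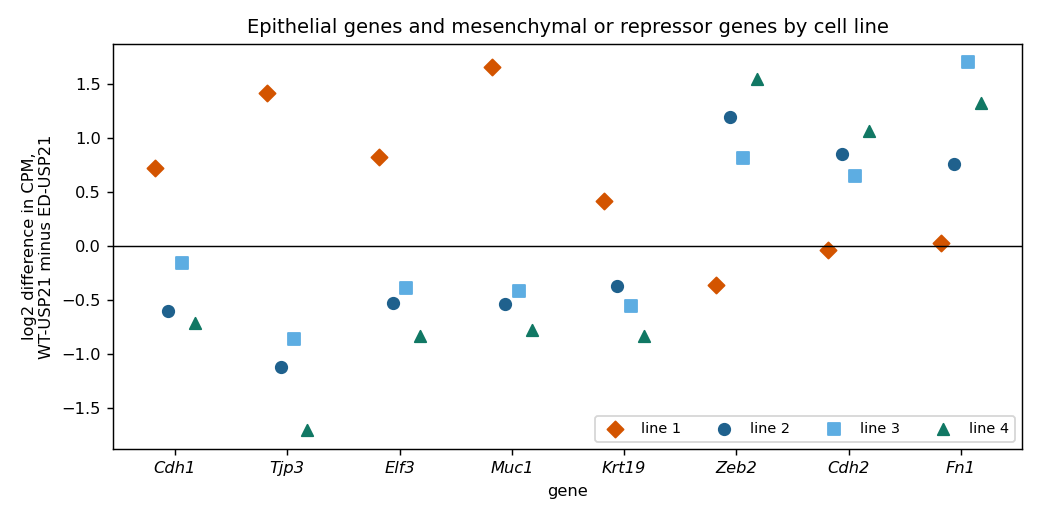
Log2 difference in CPM, WT-USP21 minus ED-USP21 (y axis, prior count 2), for 8 genes on the x axis, picked from the lists. There is 1 point per cell line and no error, since each is a single difference. Not shown are Twist1, Snai1, Snai2, Zeb1 and Vim of the repressor and mesenchymal list. Members higher with WT-USP21 in 4 of 4 lines (Cldn2, Cldn4, Dsc2, Pkp1 and Spint1) are not shown either. Cdh1, Tjp3, Elf3, Muc1 and Krt19 are above 0 in line 1 and below it in lines 2 to 4, while Zeb2, Cdh2 and Fn1 are above 0 in lines 2 to 4 and at -0.36, -0.04 and 0.03 in line 1.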

How the data were processed

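RNA was sequenced from mouse PDAC cells of 4 lines with WT-USP21 or ED-USP21, 8 libraries. The authors deposited whole-number read counts per gene, not normalised. The submitters' processing notes list HTSeq, STAR, TopHat, Cufflinks and CASAVA, and the build mm9. Neither versions nor a strand setting are given in the sources used here. Without strand, an overlapping or antisense gene may share reads with a gene named here. The 3 rows that name no gene together held 11.4% to 20.6% of counts, and all 3 were left out of every test and total. Symbols are those of the deposited files, and 37607 of 39179 identifiers are in the GENCODE M21 name table. The promoter windows come from RefSeq on GRCm38.p6, another build, and were matched by symbol alone.

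From the counts, edgeR 4.0.16 in R 4.3.3 gave log2 differences and p-values (quasi-likelihood test, TMM scaling, default low-count filter), adjusted by Benjamini-Hochberg over all genes tested and called under 0.05. The SE is the absolute log2 difference over the square root of F. CPM use TMM-scaled library sizes, and log2 CPM a prior count of 2. In CPM, 3 counts, the limit that a count of 0 allows, come to 0.0289 to 0.0405. Libraries were grouped by construct and line from their titles. Comparisons were WT-USP21 against ED-USP21 without and with the line as a block, the construct by line 1 interaction, and summed lines by line 1 and by background label. The alternatives were other scaling, low-count filters, DESeq2 1.42.0, limma-trend (limma 3.58.1), the block, and each line left out. The scripts were tested on simulated data.

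The members and all lists were chosen with earlier results of these data known. The rule for naming took all 37 members, with values in every library for Cdh1, Epcam, called members, and up to 3 per role by smallest p in the interaction and within lines. From the other lists it took called genes, and up to 3 per list by p. Some items that the rule or the labels give are not reported here. Both libraries of a line number come from the same cell line, and their deviations from the group means correlated across genes at 0.770, 0.503, 0.468 and 0.347 in lines 1 to 4. For line 4 these values do not single out the pair. Its ED-USP21 library correlated at 0.430 with the WT-USP21 library of line 2. Its WT-USP21 library correlated at 0.364 with the ED-USP21 library of line 2.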

Additional observations from a re-analysis of the deposited data

Results flagged for a closer look

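In 26 of 67 groups of 4 libraries examined, 1 library lay far from the other 3 of its construct, where chance gives about 1 in 20, or 3.35. In most of them it was the library of line 1, at the high end. Line 1 stood apart over all genes too. Both its libraries lay above all 6 others for 26% of all genes tested and below them for 24.3%. Those shares use another measure than the count of 26, whose share over all genes is not given here. The count of 26 is therefore not read as a result about the members in particular. With WT-USP21 and with ED-USP21 these were Epcam at 5.35 and 3.40 CPM, Cldn6 at 320 and 381 CPM, Cldn12 at 176 and 157 CPM, Marveld2 at 12.8 and 6.64 CPM, Dsg2 at 51.1 and 49.6 CPM, Dsc2 at 15.0 and 6.20 CPM, Pkp1 at 26.8 and 16.1 CPM, Grhl1 at 6.03 and 2.84 CPM, and Spint1 at 8.59 and 6.58 CPM. With WT-USP21 alone these were Ocln at 22.4 CPM, F11r at 233 CPM, Marveld3 at 5.0 CPM and Esrp2 at 43.2 CPM. Jup stood out with ED-USP21 alone, at 184 CPM. Line 1 was low for Spint2 with ED-USP21, at 80.8 CPM. Outside line 1, Tjp3 was high in the WT-USP21 library of line 2, at 25.0 CPM, and Cldn15 was low in that of line 4, at 0.174 CPM.

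The construct difference in line 1 differed from that in lines 2 to 4, by the interaction term of edgeR, for Cdh1 (1.22 on the log2 scale), Ocln (2.71), Tjp3 (2.65), Marveld3 (2.22), Dsp (1.16), Elf3 (1.40), Ehf (3.44) and Spint2 (0.75). In each of these 8 genes WT-USP21 was above ED-USP21 in line 1 and below it in lines 2, 3 and 4.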

How the results depend on the processing

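The direction was kept more often than the call: of 1226 single-gene values under alternatives, 1119 kept both and 28 changed direction. A member that was not called and stayed so counts as keeping its call, so these totals do not describe the called members alone. Pairing by line did not change the count of members called with 4 lines, which was 0 of 32 with the replicate block and without it. Within lines DESeq2 called 2 members, and 0 to 6 were called with a line left out. The interaction count ranged from 0 (without line 2) to 14 (without line 3), line 1 against lines 2 to 4 from 19 to 28, and the background labels from 0 to 20 (without line 2). A minimum mean of 5 CPM left 12 calls for line 1 against lines 2 to 4, with 19 members tested. Within lines 2 to 4 the count was 11 without a low-count filter, 11 in DESeq2, 0 without the block, and 0 to 12 with a line left out. Neither test of line 1 can be made without it. Of the lines left out, line 3 gave the highest count in both tests of line 1 and within lines 2 to 4. Without line 3 the spread there comes from lines 2 and 4 alone, whose independence is not shown. The higher counts without line 3 are therefore no added support. The cause of these changes in count was not tested.

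With a line left out, the median log2 difference of tested members within lines ranged from -0.33 to -0.04, and that of the interaction from 0.48 to 0.61. Scaling to library totals moved the median of all genes for line 1 against lines 2 to 4 to -0.12.

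Without the replicate block, the log2 difference turned to 0.31 for Ocln, 0.83 for Marveld2, 0.44 for Marveld3, 0.67 for Grhl1 and -0.17 for St14, in comparisons where none of them passed. For Cgn in line 1 against lines 2 to 4 it turned to -0.078 with library totals and -0.10 with the 5 CPM minimum. With a line left out, ranges that cross 0 within lines were -0.63 to 0.20 for Cldn23, -0.17 to 0.010 for F11r, -0.70 to 0.17 for Marveld2, -0.67 to 0.16 for Marveld3, -0.029 to 0.065 for Pkp3, -0.090 to 0.10 for Jup, -1.02 to 0.11 for Ehf, -0.30 to 0.048 for Rab25 and -0.47 to 0.29 for St14. In the interaction they were -1.01 to 0.076 for Epcam, -0.10 to 0.51 for Cldn15 and -0.35 to 0.43 for Grhl2. For line 1 against lines 2 to 4 they were -0.090 to 0.42 for Cldn15 and -0.12 to 0.079 for Cgn, and within lines 2 to 4 -0.10 to 0.0060 for Cldn6 and -0.049 to 1.11 for Ovol1. None of these had passed. Depth limits Esrp1 and Ovol2, with 17 and 7 reads.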

Other observations

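Gap junction genes, which are not among the 37, were called in both directions. Of the 6 connexin genes tested, edgeR called 2 higher (Gjb1 and Gjb2) and 1 lower (Gja1) in the construct difference of line 1 minus that of lines 2 to 4, against 3.19% and 3.08% of all genes, and 0 within lines or within lines 2 to 4. Gjb1, connexin 32 of secretory epithelia, was at 2.0, 1.34, 1.63 and 0.546 CPM in the WT-USP21 libraries of lines 1 to 4, against 0.116, 2.12, 4.47 and 3.46 CPM in the ED-USP21 libraries. Its ED-USP21 library of line 1 was the lowest of the 8, and in lines 2 to 4 every WT-USP21 library lay below every ED-USP21 library. Gjb1 had an interaction of 5.66 on the log2 scale (SE 0.88, edgeR adjusted p = 0.0215). Gjb2, connexin 26, was at 2.38, 0.556, 1.34 and 0.767 CPM in the WT-USP21 libraries of lines 1 to 4, against 0.530, 0.824, 1.58 and 1.02 CPM in the ED-USP21 libraries. Its interaction was 2.56 (SE 0.48, edgeR adjusted p = 0.0341). Gja1, connexin 43, was at 72.7, 80.9, 92.0 and 96.1 CPM in the WT-USP21 libraries of lines 1 to 4, against 97.3, 71.7, 75.4 and 72.7 CPM in the ED-USP21 libraries. WT-USP21 lay below ED-USP21 in line 1 and above it, without overlap, in lines 2 to 4, with an interaction of -0.71 (SE 0.13, edgeR adjusted p = 0.0337).

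Keratins followed the junction genes in part. Of 4 keratins tested, Krt7 (0.63) and Krt19 (1.0) were called higher in the interaction, against 3.19% of all genes, and Krt19 fell with WT-USP21 in lines 2 to 4 by 0.58 (SE 0.09, edgeR adjusted p = 0.0261). Krt19, a keratin of duct cells, was at 2588, 1124, 1141 and 961 CPM in the WT-USP21 libraries of lines 1 to 4, against 1939, 1455, 1676 and 1715 CPM in the ED-USP21 libraries. Krt8 and Krt18 did not pass in either comparison.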
